A study of Mus musculus with 2 samples.

Results

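The unfolded protein response and the chaperones of the endoplasmic reticulum (ER) were followed through 10 genes: Xbp1, Hspa5, Hsp90b1, Sdf2l1, Dnajb9, Dnajb11, Dnajc3, Herpud1, Pdia4 and Manf. They were picked by name from 25509 genes in the count table, with earlier results of this same contrast known, so they were chosen by the values described here and their differences are a description, not a test. All 10 had at least 10 counts in 1 library or both, as did 12941 genes in all, and these 12941 are the genes compared below. The cells were mouse soft-tissue sarcoma cells, and the contrast asks what a short hairpin RNA (shRNA) against a circular RNA of the Csnk1g3 gene, circCsnk1g3, goes with in the transcriptome.

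Both groups were C57BL/6 mesenchymal stem cells with p53-/- and Ccne1 overexpression (p53-/-Ccne1+), so by the labels p53 loss and excess cyclin E1 were common to the control as well. They had grown as subcutaneous tumors in primary recipients, had been seeded in the lungs of secondary recipients and were recovered from the lung foci. The recovered cells then received, by transduction, either the control hairpin (shCTR) or the hairpin against circCsnk1g3 (shcircCsnk1g3), and each group had 1 library. With 1 library per group there was no replicate check and no test was possible, the labels name no animal, clone or culture, and every difference compares 2 libraries. The mice were young adult females, and the hairpin was designed against the back-splice junction, the joint that is present in the circular form alone.

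Proteins that enter the ER fold with the help of chaperones, and when unfolded protein builds up, sensors in the ER membrane switch on a program called the unfolded protein response. IRE1 splices the mRNA of the transcription factor XBP1, ATF6 is released by proteolysis in the Golgi, and PERK phosphorylates eIF2α, which lowers translation in general and favours that of ATF4. XBP1 and ATF6 act largely on chaperones, folding enzymes and degradation factors of the ER, while ATF4 acts on amino acid supply, redox defence and the factor CHOP, encoded by Ddit3. Secretory cells such as plasma cells are the classic setting of this program, and matrix-secreting mesenchymal cells also make heavy use of it.

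Several members carry in their promoters the short sequences through which these factors are known to act, and these stretches are shown because the genes named for the program differ in which of them they hold. RefSeq promoters (assembly GRCm38.p6, 250 bases before to 50 after the start) were at hand for 9 members, with Manf as the exception. Their starts lay 0 to 258 bases from the gene starts of the GENCODE annotation, from which the gene coordinates below are taken. The exact ER stress response element (ERSE, CCAAT and CCACG separated by 9 bases, either strand) was present in 3 of the 9, in Hspa5, Hsp90b1 and Dnajc3, against 0.119% of 32851 mouse promoters. The element ERSE-II (ATTGG and CCACG separated by 1 base) was present in Herpud1 and Dnajb11, that is 2 of 9 against 0.0365%. The UPR element (UPRE) core TGACGTG was found in Hspa5 only among the members, against 2.01% of promoters, and the ATF4-type element (CARE) TGATGCAA in Herpud1 only, against 0.895%. ERSE and ERSE-II share the CCACG part, but no 2 matches in the members overlapped. A match is a run of letters and not a measured binding site. As the members were picked as genes of this program, the shares beside them are a description and not a test. For Hspa5 and Herpud1, which differed in opposite directions between the libraries, the 250 bases before the start are printed on the strand of the gene (plus for both, chr2:34771840-34772089 and chr8:94386179-94386428), with the matches in capitals. TTGCATCA in Herpud1 is TGATGCAA read on the other strand.
Hspa5: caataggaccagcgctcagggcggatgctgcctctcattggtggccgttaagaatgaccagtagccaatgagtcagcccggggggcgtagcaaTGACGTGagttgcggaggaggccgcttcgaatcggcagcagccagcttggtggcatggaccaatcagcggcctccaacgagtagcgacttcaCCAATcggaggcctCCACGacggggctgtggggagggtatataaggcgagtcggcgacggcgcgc
Herpud1: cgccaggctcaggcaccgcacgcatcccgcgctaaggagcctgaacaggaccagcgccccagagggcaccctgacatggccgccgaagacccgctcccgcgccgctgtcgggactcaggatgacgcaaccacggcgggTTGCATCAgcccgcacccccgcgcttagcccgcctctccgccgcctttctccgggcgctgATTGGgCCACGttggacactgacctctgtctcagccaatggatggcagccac

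In Hspa5, the UPR element core lay at -157 to -151 and the ERSE at -65 to -47 relative to the RefSeq start. That start is 120 bases inside the annotated gene, so the ERSE of Hspa5 also lies within the annotated gene. In Herpud1, the ATF4-type element lay at -112 to -105 and the ERSE-II at -52 to -42. The remaining 3 promoters with a match are shown by the matches alone with 9 bases on each side, 5′ to 3′ on the strand of the gene, again with the matched parts in capitals. Hsp90b1 lies on the minus strand (chr10:86705629-86705665 and chr10:86705524-86705560) and held the element on both strands, at -212 to -194 and, reversed, at -107 to -89. Dnajc3 (chr14:118937818-118937854, plus strand) held it at -105 to -87, and Dnajb11 (chr16:22857843-22857871, plus strand) held ERSE-II at 8 to 18, just after the start.
Hsp90b1, forward element: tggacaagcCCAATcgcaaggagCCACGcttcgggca
Hsp90b1, reversed element: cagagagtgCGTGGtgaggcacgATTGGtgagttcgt
Dnajc3: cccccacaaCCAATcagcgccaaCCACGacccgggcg
Dnajb11: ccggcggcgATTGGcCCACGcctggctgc

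**Figure D1:**
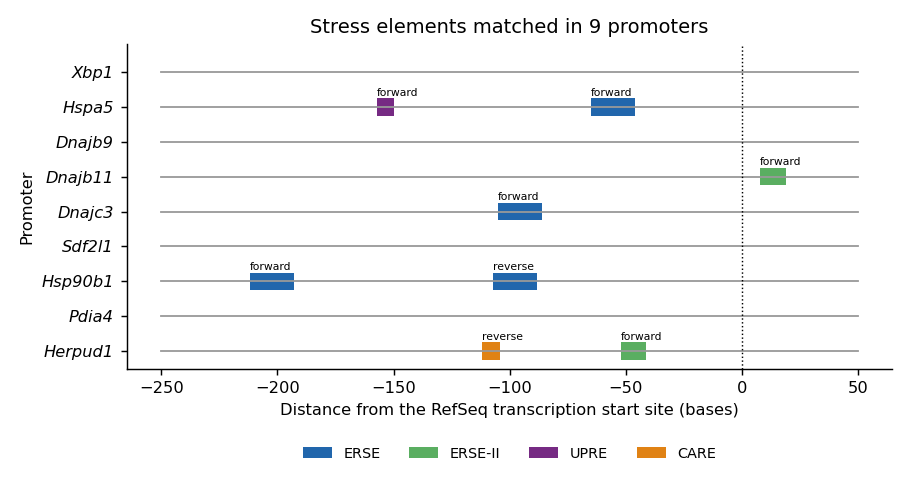
Position of each matched element in the 9 member promoters, plotted as distance in bases from the RefSeq start site, with 1 line per gene and 1 colour per element (UPRE is the UPR element core, CARE the ATF4-type element), labelled forward or reverse relative to the gene. ERSE or ERSE-II was matched in 5 of the 9, and Xbp1, Dnajb9, Sdf2l1 and Pdia4 had no exact match of any of the 4 elements in this window. For Dnajb9 the whole window lies inside the annotated gene, so sequence before the gene was not searched.

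The libraries held 38792143 (shcircCsnk1g3) and 42709996 (shCTR) estimated counts, with 15256 and 15326 genes above 0. Levels below are in CPM, a count relative to the size of its library, after TMM, a normalization that sets the bulk of genes equal, with factors of 1.01 and 0.989. A log2 fold change is shcircCsnk1g3 over shCTR, and its interval is found from the shcircCsnk1g3 share of the gene's counts (Clopper-Pearson, 95%) and turned into a ratio, which covers counting error only. Linear Csnk1g3, the host gene, stood at 2159 and 2411 counts (log2 -0.05, -0.14 to 0.03), and since a poly(A) library does not capture a circular RNA, this does not measure circCsnk1g3. Ccne1 had 893 and 963 counts, with no library lacking the overexpression to set them against. Trp53 had 3841 and 4334 counts (97.9 and 103 CPM), so the gene-level counts do not show the p53 loss that the labels state, and they do not tell which of its exons were read. Of 10 mesenchymal markers, 9 had at least 10 counts (summed 341505 and 421562 over the list), whereas the tenth, Thy1, had 0 and 1. Leukocyte markers, which could come with lung foci, summed to 99 and 169 counts over 14 genes, 8 of them at 0 in both libraries including Cd3e, Lyz2 and S100a8, with Ptprc at 1 and 0. Nearly all of that sum was Cd68, a lysosomal protein, with 87 and 155 counts (log2 -0.71, -1.12 to -0.34). Endothelial markers summed to 19 and 32 over 8 genes (Cldn5, Emcn and Kdr at 0), and lung epithelial markers to 121 and 79 over 11 genes, with Epcam, Sftpc and Nkx2-1 at 0 in both. Most of the latter sum was the keratin Krt8, higher in shcircCsnk1g3 with 92 and 46 counts (log2 1.07, 0.58 to 1.65). Transcripts of the 2 rRNA-locus genes took 0.411% of counts in shcircCsnk1g3 and 0.127% in shCTR, and mitochondrially encoded genes 2.97% and 2.99%, and their part in the results was not tested.

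The 10 genes together made up 0.302% of counts in shcircCsnk1g3 and 0.341% in shCTR. Their summed level was 2991 and 3448 CPM, 13.2% lower with the circCsnk1g3 hairpin (log2 -0.20, -0.22 to -0.19). Hspa5 and Hsp90b1 supplied most of this sum, and without them the sum of the other 8 was 12.2% lower (log2 -0.19, -0.21 to -0.17). Gene by gene, 8 of the 10 were lower and 2, Dnajb9 and Herpud1, were higher. Their log2 fold changes ran from -0.84 to 0.25 around a median of -0.27. Of all genes compared, 49.6% were lower and 50.4% higher, with a median of 0.00 and quartiles of -0.16 and 0.16. The markers of the cells' own lineage lay on the same side as the members, with all 9 counted mesenchymal markers lower, 3 of them by at least 1.2-fold (median -0.14), where 16.4% of all genes were, or 8 of 9 lower with libraries scaled by total counts. Among them were Eng (94 and 146 counts, -0.52), Nt5e (1682 and 2547, -0.49) and Vim (225330 and 282350, -0.22), while Pdgfrb (-0.04) and Twist1 (-0.02) had intervals that included 0. The part of this difference in that of the members was not tested. In bulk RNA, fewer cells with a transcript and less of it per cell cannot be told apart.

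**Figure D2:**
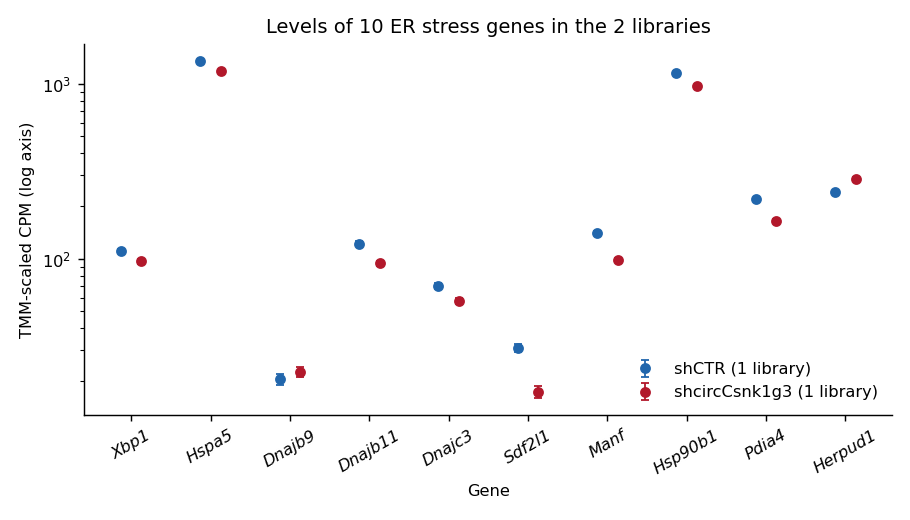
TMM-scaled CPM of each of the 10 genes in the 2 libraries on a log axis, 1 point per library, with bars for the 95% exact Poisson interval of the count, most of them narrower than the point. The shcircCsnk1g3 point lies below the shCTR point for 8 genes and above it for Dnajb9 and Herpud1, and Hspa5 and Hsp90b1 stand far above the rest at 973 to 1341 CPM.

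Xbp1 (ENSMUSG00000020484, chr11:5520659-5525893, plus strand), the transcription factor whose mRNA IRE1 splices, had 3791 counts in shcircCsnk1g3 and 4693 in shCTR, or 96.7 and 111 CPM. Its log2 fold change was -0.20 (-0.26 to -0.14), a level 1.15-fold lower with the circCsnk1g3 hairpin. These are counts over the whole gene, so the spliced and unspliced forms were not separated and the activity of IRE1 was not measured.

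Hspa5 (ENSMUSG00000026864, chr2:34771970-34777547, plus strand) encodes BiP, the Hsp70 chaperone of the ER lumen, which also holds the sensors inactive. It had 46313 and 56676 counts, 1181 CPM in shcircCsnk1g3 against 1341 in shCTR, a log2 difference of -0.18 (-0.20 to -0.17). This was the narrowest interval of the 10, and the difference, 1.14-fold, the smallest among the 8 genes that were lower. Hsp90b1 (ENSMUSG00000020048, chr10:86690209-86705509, minus strand) encodes GRP94, the Hsp90 of the ER, which folds integrins and Toll-like receptors. It had 38146 and 48659 counts, 973 and 1152 CPM (log2 -0.24, -0.26 to -0.22). Hsp90b1 was lower by slightly more than Hspa5, with intervals that do not meet. It stood at 90.0 per 100 of Hspa5 per kilobase of exon in shCTR and at 86.4 in shcircCsnk1g3. The pseudogene 1810014B01Rik overlaps Hsp90b1 on the other strand, with 129 counts in each library.

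BiP works with J-domain co-chaperones, and 3 of them were among the members. Dnajb11 (ENSMUSG00000004460, chr16:22857845-22879634, plus strand) encodes ERdj3, which binds unfolded clients and hands them to BiP. It had 3685 and 5162 counts, 94.0 CPM in shcircCsnk1g3 and 122 in shCTR (log2 -0.38, -0.44 to -0.32). Dnajc3 (ENSMUSG00000022136, chr14:118937976-118981697, plus strand) encodes p58IPK, another co-chaperone of BiP. It had 2247 and 2954 counts, 57.3 and 69.9 CPM (log2 -0.29, -0.37 to -0.21). Both were lower by more than Hspa5 itself, with intervals that do not meet that of Hspa5. Dnajb9 (ENSMUSG00000014905, chr12:44205559-44210326, minus strand) encodes ERdj4, which brings BiP to IRE1 and so represses it, and is itself a well known XBP1 target. It had 887 and 863 counts, 22.6 CPM in shcircCsnk1g3 and 20.4 in shCTR (log2 0.15, 0.01 to 0.28). Its interval all but reached 0, and at this depth its difference was the least certain of the 10. The 3 genes summed to 6819 and 8979 counts, 18.2% lower in shcircCsnk1g3 (log2 -0.29, -0.34 to -0.24), a sum in which Dnajb9 weighed little.

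Sdf2l1 (ENSMUSG00000022769, chr16:17130138-17132383, minus strand), whose small ER protein works as a partner of ERdj3, showed the widest gap. It had 677 counts in shcircCsnk1g3 and 1305 in shCTR, 17.3 and 30.9 CPM. Its level was 1.79-fold lower with the circCsnk1g3 hairpin (log2 -0.84, -0.98 to -0.70), so that Sdf2l1 and its partner Dnajb11 were both lower, Sdf2l1 by more. Sdf2l1 was the only member past 1.5-fold, and without it the summed level of the other 9 was still lower (log2 -0.20). Manf (ENSMUSG00000032575, chr9:106838312-106891979, minus strand) encodes a small protein that resides in the ER, binds BiP and is secreted under ER stress. It had 3856 and 5930 counts, 98.3 and 140 CPM, 1.43-fold lower (log2 -0.51, -0.57 to -0.45). The annotated span of Manf also covers Dcaf1, on the other strand with 3142 and 3307 counts, and Rbm15b, on the same strand with 2532 and 2803 counts, and whether the counting used strand was not stated. Neither neighbour had a gap of the size seen for Manf.

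Pdia4 (ENSMUSG00000025823, chr6:47796141-47813430, minus strand) encodes ERp72, a protein disulfide isomerase. It had 6444 and 9247 counts, 164 CPM in shcircCsnk1g3 and 219 in shCTR, 1.33-fold lower (log2 -0.41, -0.46 to -0.37). Herpud1 (ENSMUSG00000031770, chr8:94386438-94395377, plus strand) encodes HERP, a membrane protein that helps to assemble the machinery of ER-associated degradation (ERAD) and is a known target of both the ATF6 and the ATF4 branch. Unlike the folding genes above other than Dnajb9, it was higher with the circCsnk1g3 hairpin, with 11263 counts in shcircCsnk1g3 and 10170 in shCTR, 287 and 241 CPM, 1.19-fold higher (log2 0.25, 0.22 to 0.29). Its promoter is the only one of the 9 with the ATF4-type element, shown above, beside an ERSE-II. The part of either element in its direction was not tested, and Dnajb9, the other higher member, had no match in its window.

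**Figure D3:**
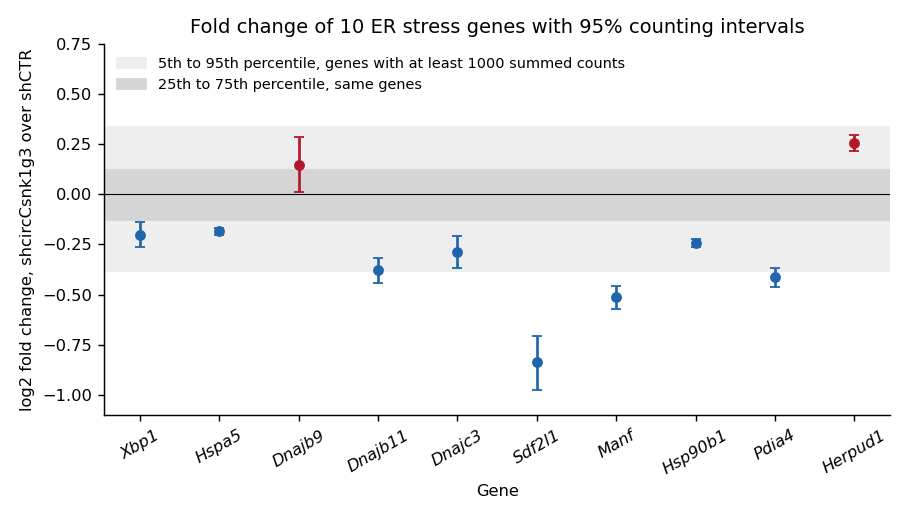
Log2 fold change of each member (shcircCsnk1g3 over shCTR), with bars for the 95% counting interval. Grey bands show percentile ranges of the genes with at least 1000 summed counts. Sdf2l1 is the lowest point at -0.84, and Dnajb9 and Herpud1 are the only genes above 0.

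Set against all genes compared, 5 of the 10 members (Sdf2l1, Manf, Pdia4, Dnajb11 and Dnajc3) were at least 1.2-fold lower, against that 16.4% of all genes. With libraries scaled by total counts the number was 4, Dnajc3 then standing at -0.26, short of the line. No member was at least 1.2-fold higher, where 15.7% of all genes were. At 1.5-fold the count was 1 lower and 0 higher, with backgrounds of 6.31% and 5.39%. Lowly counted genes scatter more, and all 10 members had at least 1000 summed counts. Among the 8719 genes with that many counts, 50.8% were lower and 49.2% higher, 10.4% at least 1.2-fold lower and 8.61% at least 1.2-fold higher, and at 1.5-fold the shares were 1.86% and 0.986%. Because the members were chosen with these values in view, nothing is read from these counts. Just inside the 1.2-fold line lay Dnajc3 at -0.29, and just outside it Hsp90b1 at -0.24, while Herpud1, at 0.25, lay just outside the same line on the higher side. By rank among the 8719, Sdf2l1 stood at percentile 0.717 from the lowest, Manf at 2.57, Pdia4 at 4.21 and Dnajb11 at 5.12, against 15.8 for Xbp1 and 17.4 for Hspa5. Herpud1 stood at 90.9 and Dnajb9 at 79.2.

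**Figure D4:**
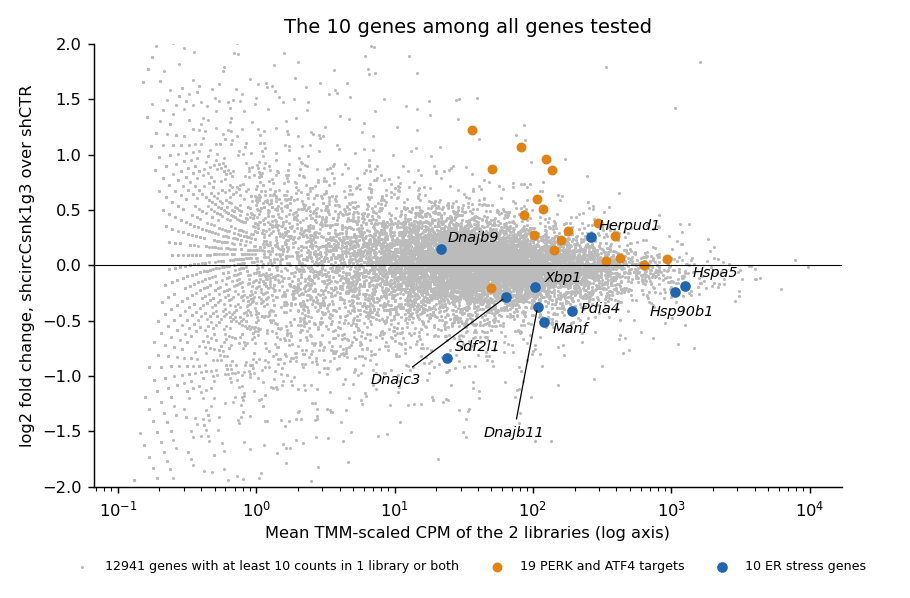
Log2 fold change against mean level (log scale) for the 12941 genes compared, in grey, with the 10 members in blue and named and the 19 PERK and ATF4 targets in orange; 101 genes lie beyond the drawn range of 2 on the log2 axis. The members sit in the well counted part of the plot, where the grey cloud is narrow, and Sdf2l1 lies at its lower edge.

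Per kilobase of merged exon, levels of different genes can be compared roughly, since merged exons pool all annotated transcripts of a gene. On this scale Hspa5 (317 CPM per kb in shCTR and 279 in shcircCsnk1g3) and Hsp90b1 (286 and 241) were the most abundant in both libraries. Herpud1 followed at 103 and 123, then Pdia4 at 91.2 and 68.5. Manf (39.8 and 27.9), Dnajb11 (37.8 and 29.0) and Xbp1 (34.2 and 29.8) lay close together, and it was only among these 3 that the order differed between the libraries. Sdf2l1 (27.9 and 15.6), Dnajc3 (13.6 and 11.1) and Dnajb9 (8.01 and 8.87) were lowest. With Hspa5 set to 100 per kb, Herpud1 stood at 32.5 in shCTR and at 44.1 in shcircCsnk1g3, and Sdf2l1 at 8.79 and 5.58.

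The sensors that switch the program on, and the proteases that process ATF6, lay closer to equal levels than the members. Of these 6 genes, 3 were lower and 3 higher, with a median of -0.01 that turned to 0.02 when libraries were scaled by total counts. Ern1, which encodes IRE1, had 4214 and 3776 counts and was the only one past 1.2-fold (log2 0.27, 0.20 to 0.33). Atf6 had 6960 and 7137 counts (0.07, 0.02 to 0.12), and its relative Atf6b 4129 and 4947 (-0.15, -0.21 to -0.09). Eif2ak3, which encodes PERK, had 1121 and 1252 counts (-0.05, -0.17 to 0.07), and its counting interval included 0. The proteases Mbtps1 (7247 and 8181 counts, -0.07) and Mbtps2 (2651 and 2806, 0.03) were within 0.1 on the log2 scale.

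The rest of the ER folding machinery, read from lists that leave the members out, lay mostly on the lower side as well. In the Hsp70 and Hsp90 chaperone system, 17 of 19 genes were lower and 2 higher (median -0.22), and 8 were at least 1.2-fold lower. Fkbp11, a prolyl isomerase of the ER, had 832 and 1284 counts (log2 -0.52), and Sil1, the nucleotide exchange factor of BiP, 367 and 547 (-0.47). On the other side, Cnpy2 had 2511 and 2180 counts (0.31), and Dnajc1, another J-domain protein, stood at 0.02. Among disulfide isomerases and oxidases, 15 of 18 were lower (median -0.23) and 7 at least 1.2-fold lower. Txndc5, a thioredoxin-domain isomerase, had 7142 counts in shcircCsnk1g3 and 15713 in shCTR, 2.04-fold lower (-1.03, -1.07 to -0.99), a wider gap than any member had. Qsox1, a sulfhydryl oxidase, had 2565 and 4398 counts (-0.67). The third gene of this list past 1.5-fold, Pdia3, was named after its values were seen, with 13107 and 21854 counts (-0.63). Ero1l, the oxidase that recharges the isomerases and a known CHOP target, stood apart with 16394 and 12256 counts (0.53, 0.49 to 0.56), followed by Erp29 (2672 and 2506, 0.20).

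In the calnexin cycle, which folds glycoproteins by way of their N-glycans, 15 of 17 genes were lower and 7 at least 1.2-fold lower (median -0.24). The lectin chaperone Calr had 33315 and 50090 counts (log2 -0.48, -0.50 to -0.46), and the cargo lectin Lman2 4479 and 8067 (-0.74, -0.79 to -0.69). Uggt2, a folding sensor, had 567 and 519 counts (0.23), and Prkcsh, a glucosidase subunit, stood at 0.02. Protein translocation had 19 of 25 lower and 6 at least 1.2-fold lower (median -0.17), led by the signal peptidase subunits Sec11c (1207 and 1978 counts, -0.60) and Spcs3 (5674 and 8027, -0.39). Its highest were the translocon subunit Sec61a2 (1485 and 1417 counts, 0.17) and Srp54a of the signal recognition particle (0.10). COPII transport had 17 of 20 lower but only 3 past 1.2-fold (median -0.09), with the coat proteins Sec23a at 2582 and 3713 counts (-0.42) and Sec24c at -0.29 on one side, and Bet1 (0.13) and Kdelr3 (0.10) on the other.

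ERAD, the list to which Herpud1 belongs, was more even, with 13 of 22 genes lower, 9 higher and a median of -0.06, or 11 of 22 lower with libraries scaled by total counts. At least 1.2-fold lower were 4 of them, and 0 were at least 1.2-fold higher. Edem2 (1090 and 1643 counts) and Edem3 (936 and 1403), which trim mannose from misfolded glycoproteins, were both at -0.48, and the highest were Erlec1 at 0.18 and Nploc4 at 0.13. Herpud1, at 0.25, lay above all the other genes of its list. Over the union of the 6 folding, translocation, transport and ERAD lists, 95 of 120 genes were lower (79.2%), 35 were at least 1.2-fold lower (29.2%) and 2, Cnpy2 and Ero1l, at least 1.2-fold higher (1.67%), against the backgrounds of 49.6%, 16.4% and 15.7% over all genes and 50.8%, 10.4% and 8.61% among genes with at least 1000 summed counts.

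Targets of the PERK and ATF4 branch lay on the opposite side. Of 19 genes, 17 were higher and 2 lower, 11 were at least 1.2-fold higher and 6 at least 1.5-fold higher, with a median of 0.31. The shares over all genes were 50.4%, 15.7% and 5.39%, and among genes with at least 1000 summed counts 49.2%, 8.61% and 0.986%. Ddit3, which encodes CHOP, had 4375 counts in shcircCsnk1g3 and 2242 in shCTR (log2 1.07), and the stress factor Atf3 had 1978 and 911 (1.22, 1.11 to 1.34). The lowest were Cebpb, with 1796 and 2238 counts (-0.21), and Phgdh at -0.00. The ATF4-type element was matched in 5 of 18 genes of this list with a promoter, against 0.895% of all promoters. Those 18 genes had 21 promoters. The 5 were Atf3, Slc7a11, Vldlr, Nupr1 and Chac1, with log2 fold changes of 1.22, 0.96, 0.87, 0.51 and 0.04. The genes were listed as ATF4 targets, so these matches are a description, and their part in the differences was not tested. In the other lists the ATF4-type element was matched in Cnpy2 (0.31). The ERSE was matched in none of the 18, and among the non-members of the other lists it was matched in the ER chaperones Calr and Canx, in Creld2 and Pdia6, and in the ERAD genes Syvn1 and Derl3. Of these, Calr stood at -0.48, Creld2 at -0.40, Pdia6 at -0.23, Syvn1 at -0.15 and Canx at -0.04, and Derl3 was at 0 in both libraries. The UPR element core was matched in list genes on both sides, with Txndc5 (-1.03), Fkbp11 (-0.52), Sec23a (-0.42), Srpr (-0.33), Txndc11 (-0.31), Mogs (-0.24), the secreted Timp1 (-0.23) and Sec24d (-0.10) lower, and Ube2j1 (0.13), Kdelr3 (0.10) and Vcp (0.07) higher.

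**Figure D5:**
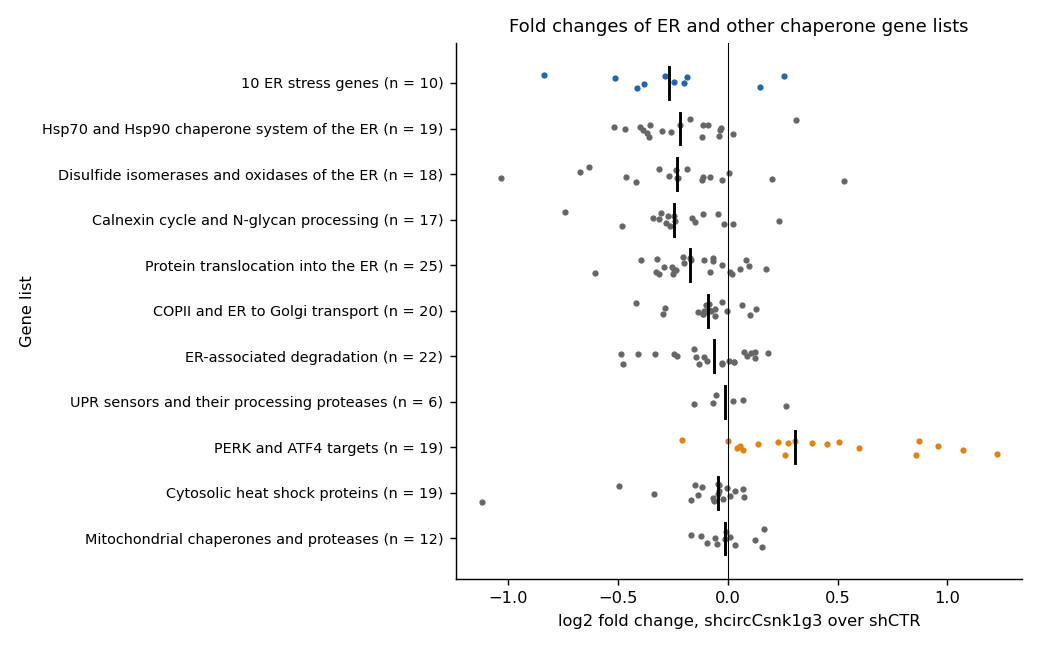
Log2 fold changes of the genes of each list (members left out of the other lists), 1 point per gene, with the median of each list as a line. The medians of the chaperone, disulfide and calnexin lists lie between -0.24 and -0.22, and that of the PERK and ATF4 targets at 0.31.

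Plasma cells express this program strongly, so their markers were read alongside. Of 8 plasma cell markers in the table, 3 had at least 10 counts, and the list summed to 3564 and 5459 counts, nearly all of it from Sdc1 (3134 and 4869) and Prdm1 (412 and 568). All 3 were lower (Sdc1 -0.53, Prdm1 -0.35 and Pou2af1, with 14 and 21 counts, -0.43), and their part in the results was not tested. The defining genes were at or near 0, Jchain with 0 in both libraries, Mzb1 with 0 and 1, and Tnfrsf17 with 1 and 0.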

How the data were processed

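RNA was profiled in 2 libraries made with the TruSeq Stranded mRNA kit. According to the study's methods, the authors converted reads with bcl2fastq 2.20, aligned them with STAR 2.6.1 to GRCm38 and obtained estimated counts per gene with RSEM 1.2.28, which divides reads that match several genes among them; edgeR 3.30 served the authors' own comparison. The GENCODE release was not given in the sources used here. The deposited count table holds the expected counts, rounded to whole numbers, of 25509 genes, and 92 spike-in rows at 0 were left out. The second table deposited by the authors holds TMM-scaled CPM for 11624 genes, each column being the counts times 1 constant, and leaves out 1341 genes compared here.

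A gene was compared where either library held at least 10 counts. TMM factors came from edgeR 4.0.16 (R 4.3.3), and log2 fold changes were computed with a prior count of 2, with pandas 2.3.3 and numpy 2.4.6 under python 3.11.15. Intervals used scipy 1.17.1 and plots matplotlib 3.10.9. No dispersion can be estimated from 1 library per group, so no p-value was computed. The computation was tested on simulated data. Coordinates and exon lengths were taken from GENCODE M21, in which 25251 of 25509 identifiers were found. Members and lists were chosen with earlier results of these data known. Beyond the members, sensors and Csnk1g3, Ccne1 and Trp53, genes were named from the 2 highest and 2 lowest non-members of each list with at least 200 summed counts, of which fewer could be used; markers at or near 0, the genes that carry a marker sum, overlapping genes and genes with a promoter match are named besides. Alternatives were DESeq2 1.42.0 size factors, total counts, other prior counts, other count limits, the TMM-scaled table and sums or medians without named members. Protein features were planned but not computed.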

Additional observations from a re-analysis of the deposited data

How the results depend on the processing

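No paired analysis was possible because each condition had 1 library, so no replicate could be left out either. The 10 members kept their direction under DESeq2 size factors, total counts, the other prior counts and the TMM-scaled table, and their median stayed between -0.27 and -0.23. Scaling by total counts moved the median of all genes to 0.03, Hspa5 to -0.15, Hsp90b1 to -0.21 and the summed log2 ratio of the members to -0.17; without Hspa5 and Hsp90b1 that ratio was -0.19. In the PERK and ATF4 list, 1 gene rather than 2 was lower with total counts, the TMM-scaled table, no count filter and at least 1000 summed counts, Phgdh lying at 0. Counts over all genes changed most with the filter, under which TMM was refitted. At least 1.2-fold lower were 3466 genes with no filter, 1322 with at least 200 summed counts and 881 with at least 1000, against 2121. At least 1.5-fold lower were 1468, 335 and 159 in the same order and 528 in the TMM-scaled table, against 817. With the same 12941 genes, total counts gave 5698 lower against 6420 and 1872 at least 1.2-fold lower, and a prior count of 10 gave 674 at least 1.5-fold lower. The members at least 1.2-fold lower numbered 4 with total counts, against 5. The medians of the 12 lists moved by less than the counting half-width typical of their genes, although those of the sensors and of the mitochondrial chaperones, near 0, turned positive (both 0.02) with total counts. Counting error alone gives a log2 half-width of 0.41 at 100 counts in each library, 0.13 at 1000 and 0.04 at 10000, and the spread between cultures is unknown.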

Other observations

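Outside the secretory lists, cytosolic and mitochondrial chaperones had medians near 0. Of 19 cytosolic heat shock genes 15 were lower (median -0.04), against 49.6% of all genes, so most lay on the lower side here too. With libraries scaled by total counts, 13 were lower. At least 1.2-fold lower were 3, and 0 were at least 1.2-fold higher, where 16.4% and 15.7% of all genes were. The stress-inducible Hspa1b (181 and 426 counts, log2 -1.12) and the small heat shock protein Cryab (2682 and 3646, -0.34) stood at the low end. Dnaja1 and Dnajb6, both at 0.07, stood at the high end. Of 12 mitochondrial chaperones and proteases 7 were lower and 5 higher, none by 1.2-fold (median -0.01), with Dnaja3 at 0.17 and Hspa9 at 0.15 against Htra2 at -0.17 and Clpp at -0.12. Among 26 secreted and matrix proteins, the cargo of the ER in mesenchymal cells, 14 were lower and 12 higher (median -0.09), against 49.6% and 50.4% of all genes. At least 1.2-fold lower were 7 and higher 4, where 16.4% and 15.7% of all genes were. At 1.5-fold the counts were 2 lower and 1 higher, against 6.31% and 5.39%. Thbs1, a matrix glycoprotein, had 42428 counts in shcircCsnk1g3 and 76914 in shCTR (-0.75), and Igfbp4 stood at -0.66, while Tnc (0.44) and Col3a1 (0.37) were higher.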
